A study of Mus musculus with 32 samples.

Results

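The STEAP family of metalloreductases was followed in 3T3-L1, a line of mouse preadipocytes that turn into fat-like cells under hormones, with and without knockdown of Zbtb9, which encodes a zinc finger and BTB domain protein. The 4 genes of the family (Steap1, Steap2, Steap3 and Steap4) were taken by symbol from a table of 20560 genes. The family was chosen by the knockdown values of Steap4, among the largest falls at days 0 and 3, so its knockdown values at those days are given as a description, with no test. Steap1, Steap2 and Steap3 came in as its relatives, whatever their values. All 32 libraries are RNA-seq of 3T3-L1 cells under adipogenic differentiation, collected at days 0, 3, 7 and 11. At each day there were 4 libraries with a scramble hairpin (shCtrl, called control), 2 with shRNA#1 and 2 with shRNA#2 against Zbtb9, and the libraries of both hairpins together make the knockdown arm. Differentiation began at day 0 with dexamethasone, isobutylmethylxanthine and insulin, went on with insulin alone from day 3 and without additions from day 7. The labels call the replicates biological and do not say how the cultures were separated, so p-values measure the spread between these libraries.

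STEAP proteins are named for their membrane-spanning segments and for the prostate, where the first of them was found. Steap2, Steap3 and Steap4 carry electrons from cytosolic NADPH through flavin and heme across a membrane to ferric iron and cupric copper, which cells take up in the reduced form. Steap1 lacks the NADPH-binding domain of its relatives. Steap3 is the main ferric reductase of the endosomes in which developing red cells free iron from transferrin. Steap4, also known as STAMP2 or TIARP, was described in 3T3-L1 cells as a transcript induced by tumour necrosis factor, and mice without it have inflamed visceral fat.

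The deposited values are log2, in the form of a regularized log transform, and whole reads were rebuilt by inverting that form. "Normalised reads" below are rebuilt reads over the size factor of their library, and RPKM relates rebuilt reads to the merged exon length and to all reads in genes. Libraries held 22280321 to 31073715 reads in genes. Zbtb9 itself had few reads. On days 0, 3, 7 and 11 in turn its knockdown mean was 61.9%, 50.6%, 42.7% and 54.5% of control (53.8%, 36.0%, 45.9% and 88.5% with shRNA 1, and 70.0%, 65.1%, 39.6% and 20.5% with shRNA 2). At day 11 the shRNA 1 libraries had 8.17 and 19.3 normalised reads, the higher of them within the control range of 12.1 to 19.96, and at day 3 they had 0 and 7.41. The adjusted p was under 0.05 at day 7 alone (0.0288; 0.271 at day 0, 0.173 at day 11, under the filter at day 3). Of its exon bases 84.4% are shared with an overlapping gene on the same strand, so that size is uncertain. Among the 10 adipocyte markers (Pparg, Fabp4, Adipoq and others), Cfd had 0 reads in all libraries of day 0. In that set of libraries Adipoq and Plin1 had at most 3 reads in a library and Slc2a4 at most 2. All 10 markers had reads in both arms on each later day. In knockdown 10 of them were higher at day 3, 10 at day 7 and 9 at day 11, and their summed level at day 7 was 136074 to 200853 normalised reads in knockdown and 50029 to 54370.4 in control libraries. Of 7 tested preadipocyte markers 6 were lower at day 7. In bulk RNA, fewer cells of a type and less RNA per cell cannot be told apart, and the part of this shift in cell state in the results below was not tested.

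In the GENCODE M21 annotation of GRCm38, the family sits at 2 places. Steap2 (ENSMUSG00000015653, chromosome 5 from 5664829 to 5694578) and Steap1 (ENSMUSG00000015652, chromosome 5 from 5736317 to 5749326) are neighbours on the minus strand, 41.7 kb apart. Steap4 (ENSMUSG00000012428, chromosome 5 from 7960457 to 7982213, plus strand) lies 2.21 Mb beyond Steap1. Steap3 (ENSMUSG00000026389) is on chromosome 1 from 120190757 to 120272705, minus strand. No annotated gene overlaps any of the 4. Merged exons of all transcripts, UTRs included, come to 1377 bases for Steap1, 12144 for Steap2, 5715 for Steap3 and 3155 for Steap4.

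The 250 bases before the start site are printed below for Steap4, the member with the largest differences in knockdown at days 0, 3 and 7, and for Steap1, the member that moved the other way at day 3 (RefSeq, GRCm38.p6, 5′ to 3′ on each gene's own strand: Steap4 at chr5:7960222-7960471, plus, and Steap1 at chr5:5749318-5749567, minus). Start sites here are those of RefSeq. Capitals mark matches to the 4 motifs searched on both strands, and no match overlapped another here. The motifs were TTGCNNAA for C/EBP factors, TTCNNNGAA for STAT factors, a fixed NF-kB sequence and the glucocorticoid receptor consensus. That NF-kB sequence had no variable position, and other forms of the NF-kB site were not searched.
Steap4: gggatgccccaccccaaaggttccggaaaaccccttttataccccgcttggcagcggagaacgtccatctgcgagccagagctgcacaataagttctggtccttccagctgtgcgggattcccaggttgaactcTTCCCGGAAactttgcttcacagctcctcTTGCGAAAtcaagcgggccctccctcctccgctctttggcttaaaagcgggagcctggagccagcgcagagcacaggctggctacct
Steap1: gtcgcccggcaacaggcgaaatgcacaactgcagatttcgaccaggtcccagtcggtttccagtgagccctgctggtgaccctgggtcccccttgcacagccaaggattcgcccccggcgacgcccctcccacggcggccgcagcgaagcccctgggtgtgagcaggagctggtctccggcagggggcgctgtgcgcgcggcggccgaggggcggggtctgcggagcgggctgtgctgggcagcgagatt
The Steap4 window holds TTCCCGGAA from 116 to 108 bases before the start and TTGCGAAA from 87 to 80 bases before it. The Steap1 window holds none of the 4 motifs. RefSeq lists 3 start sites for Steap2, of which one window holds a match to the STAT motif (TTCGTGGAA), and 4 for Steap3, of which one holds a match to the C/EBP motif (TTTTGCAA, printed as it reads on the gene's strand). Among 32817 promoter windows of the same length, 9.57% hold the C/EBP motif, 7.01% the STAT motif, 0.140% the NF-kB motif and 0.387% the glucocorticoid receptor motif. These matches are letters in a window and were not measured as binding sites.

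Per length, Steap3 was the most abundant member and Steap4 the least in most groups. In control cells, on days 0, 3, 7 and 11 in turn, Steap3 had 33.4 ± 0.682, 17.8 ± 0.951, 30.4 ± 0.261 and 37.2 ± 1.33 RPKM (SD, n = 4). Steap1 had 17.4 ± 1.4996, 28.2 ± 2.19, 14.9 ± 1.72 and 23.7 ± 2.64 RPKM on the same days, and Steap2 had 11.97 ± 0.107, 7.84 ± 0.317, 11.3 ± 0.298 and 11.1 ± 0.410. Steap4 had 5.86 ± 0.624, 3.44 ± 0.555, 12.9 ± 0.888 and 8.37 ± 1.43 RPKM. At day 3 the order at the top changed and Steap1 led in both arms. Control cells of day 7 were the only group of 8 in which the mean of Steap4 lay above that of Steap2. There all 4 Steap4 values (11.59 to 13.5 RPKM) lay above the Steap2 values (10.998 to 11.58). Such orders rest on the merged exon lengths (12144 bases for Steap2 and 3155 for Steap4), and which transcripts were in use was not measured. In normalised reads the same group had means of 3554 for Steap2 and 1048 for Steap4.

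**Figure D1:**
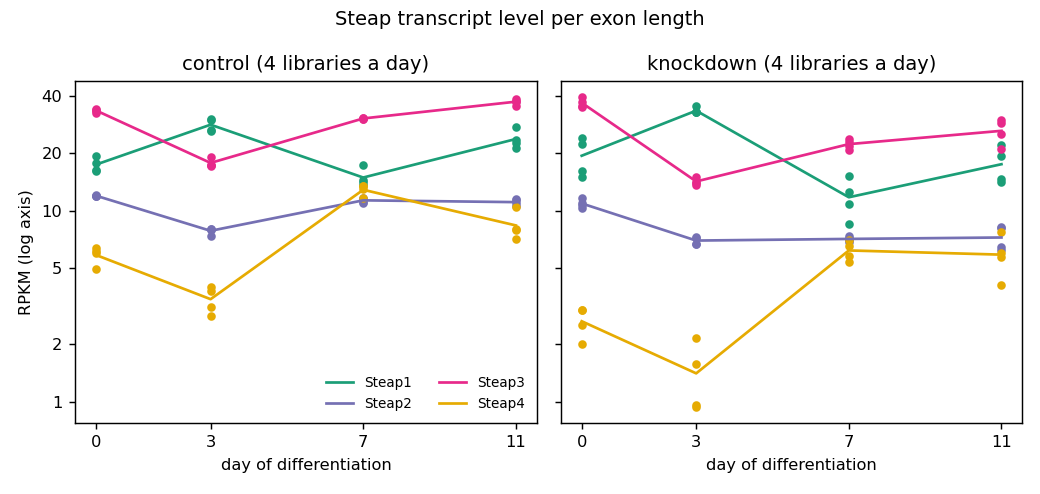
RPKM on a log axis against day for control (left) and knockdown (right); points are libraries (4 per arm and day) and lines join the means of each gene. Steap1 lies above Steap3 at day 3 in both arms, and Steap4 in control cells climbs from a mean of 3.44 at day 3 to 12.9 at day 7.

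Without knockdown, each gene had its own course between days. The control libraries of days 0 and 3 also stand in the contrast that chose Steap4, so the Steap4 steps that use them are a description. From day 0 to day 3, 3 of the 3 members tested passed with limma (adjusted p under 0.05), beside 76.6% of 13421 genes tested. Steap1 rose by 0.77 in log2 (SE 0.07, adjusted p 8.16e-11), while Steap2 fell by 0.46 and Steap3 by 0.76, and Steap4 was at -0.59 (SE 0.11). From day 3 to day 7 these directions turned: 3 of 3 passed, beside 74.2% of all genes, with Steap3 at 0.69, Steap2 at 0.45 and Steap1 at -0.92, and Steap4 was at 1.71 (SE 0.11). From day 7 to day 11, 3 of 4 passed, beside 55% of all genes: Steap1 rose by 0.61, Steap3 rose by 0.26, Steap4 changed by -0.61, and Steap2 was at -0.05 (95% interval -0.13 to 0.02, adjusted p 0.236). Rescaling every library to the same total moved the median of all genes from day 0 to day 3 by -0.13 in control and by -0.16 in knockdown, and no member's step between days 0 and 3 changed direction under it, nor any call of those tested.

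In knockdown cells Steap1 and Steap3 took steps of the same sign as in control cells. From day 0 to day 3, 3 of the 3 members tested passed, beside 78.1% of all genes: Steap1 rose by 0.91, Steap2 changed by -0.47 and Steap3 by -1.16. From day 3 to day 7, 2 of 3 passed, beside 75.4%, with Steap1 at -1.45 and Steap3 at 0.61. Steap2 did not regain its level (0.01, 95% interval -0.07 to 0.09, adjusted p 0.820). Steap4, as a description, went by -0.67 from day 0 to day 3 and by 1.93 from day 3 to day 7. From day 7 to day 11, 2 of 4 passed, beside 60.9%: Steap1 rose by 0.50 and Steap3 by 0.18, and Steap4 was at -0.13 (95% interval -0.34 to 0.09, adjusted p 0.293). That Steap4 step was called without shRNA 1 replicate 1 of day 11 (-0.24, adjusted p 0.0462, from 0.0462 to 0.910 over 13 alternatives).

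**Figure D2:**
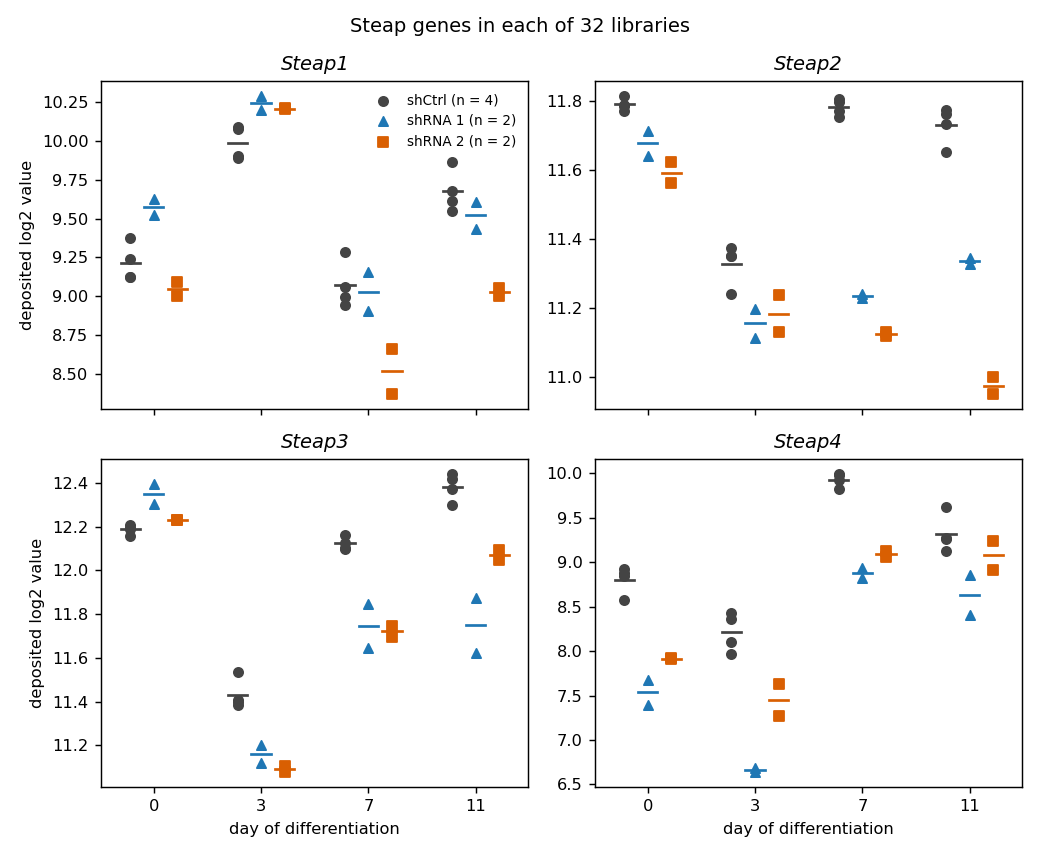
Deposited log2 value of each gene in each of the 32 libraries against day, with control (circles), shRNA 1 (triangles) and shRNA 2 (squares) side by side and short lines at the means; each panel has its own scale, which does not start at 0. Steap4 in knockdown libraries lies below every control library of the same day except at day 11, where shRNA 2 overlaps the controls.

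Set against control on the same day, the family was mostly lower in knockdown from day 3 on. At day 0, 0 of the 3 tested members passed, beside 3.25% of 13216 genes tested (limma), although 2 of 3 had an unadjusted p under 0.05, as did 19.7% of all genes, and limma's voom on rebuilt reads also called none. At day 3, 3 of 3 passed, beside 26.7% of 13139 genes: Steap1 rose (14.6% of genes did) and Steap2 and Steap3 fell (12.1%). At day 7, 3 of 4 passed, all lower (Steap2, Steap3 and Steap4), beside 47.6% of 13299 genes in either direction and 22.6% lower. At day 11, 3 of 4 passed, again all lower (Steap1, Steap2 and Steap3), beside 33% of 13281 genes in either direction and 16.2% lower. At day 0 the split of all calls was 108 higher and 322 lower, and 186 and 244 with libraries rescaled to equal totals. The 4 comparisons use separate libraries at each day.

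Steap4, the member tied to inflammation of fat, had the largest differences of the 4 genes at days 0, 3 and 7. At day 0 the control libraries had 381, 496, 477 and 466 normalised reads of Steap4, the shRNA 1 libraries 153 and 191, and the shRNA 2 libraries 231 and 229. All 4 knockdown libraries lay below all 4 controls (all lower in 7.98% of genes tested). The mean was 44.2% of control, with a log2 difference of -1.08 (a description, as above). At day 3, when Steap4 was at its lowest in both arms, controls had 239, 265, 324 and 340.2 normalised reads, shRNA 1 had 81.8 and 79.4, and shRNA 2 had 183 and 136. The groups were again apart (all lower in 12.8% of genes tested), at 41.1% of control and -1.16 in log2 (a description).

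The days that did not choose the gene can be tested. At day 7 Steap4 controls had 1098, 1042, 965 and 1088 normalised reads, shRNA 1 had 498 and 458, and shRNA 2 had 575 and 548. Knockdown libraries stood at 49.6% of control with no overlap (all lower in 20.9% of genes tested), and Steap4 fell by 0.94 in log2 (SE 0.08, 95% interval -1.11 to -0.78, limma adjusted p 8.27e-08). The call held in all 18 alternatives, with log2 differences from -1.01 to -0.89. At day 11 controls had 831, 575, 640.5 and 639.9 normalised reads, shRNA 1 had 472 and 335, and shRNA 2 had 628 and 491. There shRNA 2 overlapped the controls, the mean was 71.7% of control, and the log2 difference of -0.46 (95% interval -0.84 to -0.09) did not pass (adjusted p 0.0594). It passed in 3 of 18 alternatives (adjusted p 0.0103 to 0.140): without shRNA 2 replicate 1 (-0.59, adjusted p 0.0103), in a joint fit of the 32 libraries (adjusted p 0.0356) and with the hairpins as separate groups (adjusted p 0.0119). Whether the knockdown difference itself shrank between these days was tested over all 32 libraries. For Steap4 the change from day 7 to day 11 was 0.48 (95% interval -0.03 to 0.99, adjusted p 0.220), and 0 of the 4 members passed, beside 12.7% of 13571 genes, with 0 of 4 at an unadjusted p under 0.05 and 0 by voom.

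The fall of Steap4 can be split by hairpin. On days 0, 3, 7 and 11 in turn the mean with shRNA 1 was 37.8%, 27.6%, 45.6% and 60.1% of control, and with shRNA 2 it was 50.6%, 54.6%, 53.6% and 83.4%. As a description, since these libraries chose the gene, Steap4 was higher with shRNA 2 than with shRNA 1 by 0.38 in log2 at day 0 (0.24 without shRNA 1 replicate 1) and by 0.79 at day 3. The differences at day 7 (0.22, 95% interval 0.04 to 0.39, adjusted p 0.0945) and day 11 (0.44, 95% interval 0.04 to 0.84, adjusted p 0.108) did not pass. The day 11 difference ran from 0.22 without shRNA 1 replicate 2 (adjusted p 0.501) to 0.67 without shRNA 1 replicate 1 (adjusted p 0.0192), was 0.28 without shRNA 2 replicate 1 (adjusted p 0.432), and also passed without control replicate 1 (0.44, adjusted p 0.0361), with adjusted p from 0.00218 to 0.501 over 13 alternatives. Each hairpin alone passed against control at day 7 (shRNA 1 -1.05, adjusted p 4.73e-12; shRNA 2 -0.84, adjusted p 6.21e-10). At day 11 shRNA 1 was at -0.69 (adjusted p 0.00444) and shRNA 2 at -0.24 (95% interval -0.59 to 0.10, adjusted p 0.258).

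**Figure D3:**
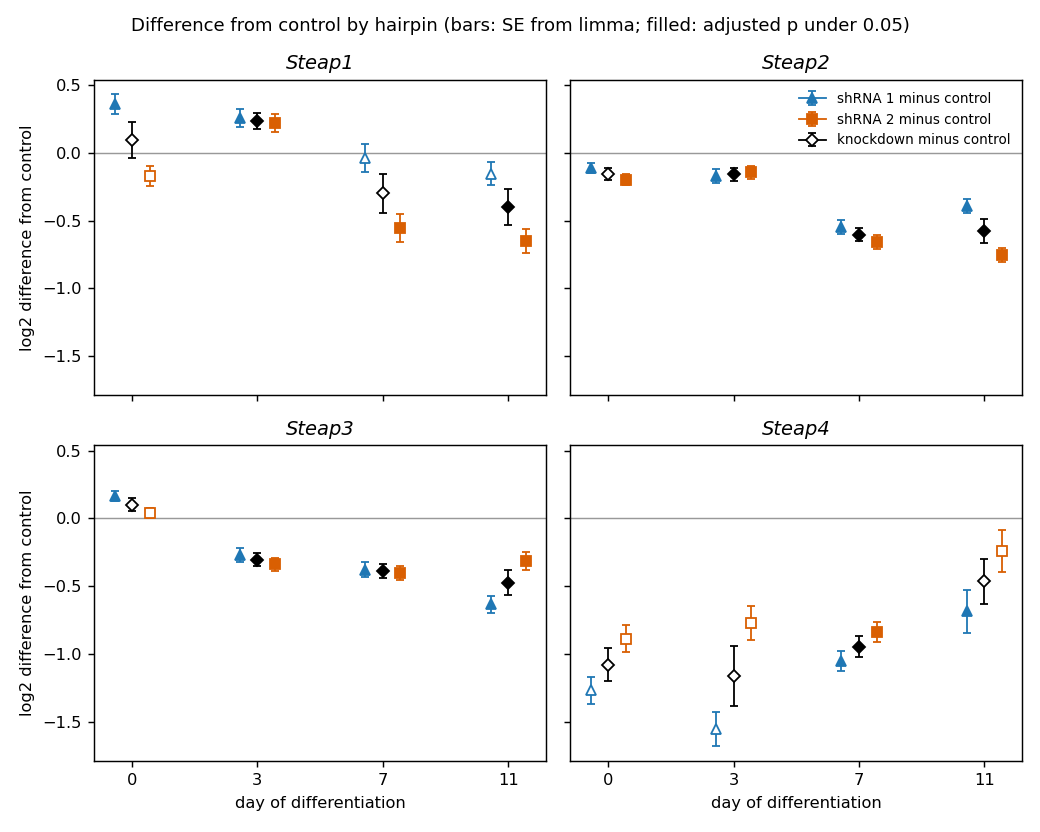
Log2 difference from control by day for shRNA 1 (triangles), shRNA 2 (squares) and both together (diamonds), with SE bars from limma; filled symbols passed at an adjusted p under 0.05, and all Steap4 symbols of days 0 and 3 are open because they were not tested. Steap4 spans -1.55 to -0.24, and the hairpins of Steap1 lie on either side of 0 at day 0.

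Steap3, the endosomal ferric reductase, went from slightly higher to lower. Day 0 controls had 4772, 4708, 4713 and 4597 normalised reads, shRNA 1 had 5104 and 5457, and shRNA 2 had 4838 and 4841. All knockdown libraries lay above all controls (all higher in 5.95% of genes tested), but by 0.10 in log2, which did not pass (adjusted p 0.245, and 0.0114 with the hairpins as separate groups, range 0.0114 to 0.754 over 18 alternatives). The difference was 0.066 without shRNA 1 replicate 2, and against control shRNA 1 alone rose by 0.16 (adjusted p 0.00075) and shRNA 2 was at 0.04 (adjusted p 0.487). At day 3 controls had 2667, 2938, 2680.3 and 2641 normalised reads, shRNA 1 had 2179 and 2315, and shRNA 2 had 2156 and 2117. All knockdown libraries were now below all controls (all lower in 12.8% of genes tested), and Steap3 fell by 0.30 (SE 0.05, adjusted p 0.00037). Day 7 controls had 4422, 4409.7, 4615 and 4496 normalised reads, shRNA 1 had 3679.6 and 3177, and shRNA 2 had 3422 and 3300.4, a fall of 0.39 (SE 0.05, adjusted p 1.7e-05). Day 11 controls had 5369, 5541, 5085 and 5632, shRNA 1 had 3748 and 3134, and shRNA 2 had 4382 and 4247, a fall of 0.47 (SE 0.09, adjusted p 0.00233). At both of these days the groups did not overlap (all lower in 20.9% and 17.3% of genes tested), and the means were 75.7% and 71.7% of control. The day 11 call held in 17 of 18 alternatives (limma adjusted p 4.11e-07 to 0.0581) and was lost with a block for the replicate number.

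The turn of Steap3 between days 0 and 3 was tested after the data were seen. Its knockdown difference changed by -0.41 (95% interval -0.59 to -0.22, adjusted p 0.00468), and 1 of the 3 members tested passed, beside 6.57% of genes. The call held in all 20 alternatives (adjusted p 0.00214 to 0.0153). The hairpins differed for Steap3 at day 0 (-0.12, adjusted p 0.0257) and once more at day 11, where shRNA 2 was 0.32 above shRNA 1 (adjusted p 0.00538). The day 0 difference was lost without shRNA 1 replicate 2 (-0.07, adjusted p 0.322), shRNA 2 replicate 1 (-0.12, adjusted p 0.107) or shRNA 2 replicate 2 (-0.12, adjusted p 0.112), over a range of 0.0157 to 0.322 in 13 alternatives. The day 11 difference was lost without shRNA 1 replicate 2 (0.20, adjusted p 0.0928, range 0.000225 to 0.0928 over 13 alternatives). Against control both hairpins passed at days 3, 7 and 11, with log2 differences from -0.63 to -0.27.

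Steap2, a ferric and cupric reductase of the plasma membrane and vesicles, was lower in knockdown by more at day 7 than at day 3. Day 0 controls had 3528, 3572, 3565 and 3637 normalised reads, shRNA 1 had 3381 and 3208, and shRNA 2 had 3166 and 3032. Every knockdown library was below every control (all lower in 7.98% of genes tested), with a log2 difference of -0.16 that did not pass (adjusted p 0.0722, and 0.000392 with the hairpins as separate groups, range 0.000392 to 0.633 over 18 alternatives). Each hairpin alone passed against control (shRNA 1 -0.11, adjusted p 0.0219, and shRNA 2 -0.20, adjusted p 0.000439). At day 3 controls had 2403, 2601, 2645 and 2601 normalised reads, shRNA 1 had 2332 and 2193, and shRNA 2 had 2397 and 2219. The groups again did not overlap (all lower in 12.8% of genes tested), if barely, and Steap2 fell by 0.16 (adjusted p 0.0222), a call lost without shRNA 1 replicate 2 (-0.14, adjusted p 0.0605) or control replicate 2 (-0.15, adjusted p 0.0625), 3 (-0.14, adjusted p 0.0750) or 4 (-0.15, adjusted p 0.0665), with adjusted p from 0.00198 to 0.289 over 18 alternatives. At day 7 controls were back at 3479.6, 3594, 3525 and 3615, while shRNA 1 had 2385 and 2406 and shRNA 2 had 2221 and 2202. At day 11 controls had 3233, 3532, 3505 and 3429, shRNA 1 had 2592 and 2559.5, and shRNA 2 had 2019 and 1950.1. The groups were far apart at both days: Steap2 fell by 0.60 at day 7 (SE 0.05, adjusted p 1.04e-07, 64.8% of control) and by 0.58 at day 11 (SE 0.09, adjusted p 0.00062, 66.6% of control). Both calls held in all 18 alternatives.

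In control cells Steap2 rose again after day 3, a rise not seen in knockdown cells. The change of the knockdown difference from day 3 to day 7, a test added after the data were seen, was -0.44 (95% interval -0.62 to -0.27, adjusted p 0.00028), beside 23.1% of genes called, and 1 of 3 members tested passed. It held in all 20 alternatives (adjusted p 8.04e-05 to 0.00115). From day 7 to day 11 the difference moved by 0.03 (95% interval -0.15 to 0.20, adjusted p 0.879). The hairpins differed at day 11, where shRNA 2 was 0.36 in log2 below shRNA 1 (adjusted p 0.000521), and this held in all 13 alternatives. At days 0, 3 and 7 the Steap2 difference between hairpins did not pass (-0.08, 0.03 and -0.11, adjusted p 0.149, 0.801 and 0.200).

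Steap1, the member without an NADPH-binding domain, depended on the hairpin. Day 0 controls had 551, 550.5, 599.6 and 661 normalised reads of Steap1, shRNA 1 had 798 and 739, and shRNA 2 had 502 and 536. Both shRNA 1 libraries lay above all controls and both shRNA 2 libraries below them, and the mean difference of 0.09 (95% interval -0.21 to 0.40, adjusted p 0.737) lies between the hairpins. It ran from -0.01 without shRNA 1 replicate 1 to 0.20 without shRNA 2 replicate 1. Against control shRNA 1 rose by 0.36 (adjusted p 0.000272) and shRNA 2 was at -0.17 (95% interval -0.32 to -0.02, adjusted p 0.111). At day 3 the hairpins were alike in direction: controls had 979, 1119, 1108 and 966 normalised reads, shRNA 1 had 1299 and 1215, and shRNA 2 had 1219 and 1224. All 4 knockdown libraries lay above all controls (all higher in 15.5% of genes tested), and Steap1 rose by 0.24 (SE 0.06, adjusted p 0.0090). In 1 fit of all 32 libraries the same difference had an adjusted p of 0.243 (range 0.000451 to 0.243 over 18 alternatives).

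Later the hairpins stood apart again for Steap1. Day 7 controls had 499, 481, 524 and 618 normalised reads, shRNA 1 had 467 and 561.5, and shRNA 2 had 388 and 312. Both shRNA 2 libraries and 1 of shRNA 1 lay below all controls, and the mean difference of -0.30 did not pass (95% interval -0.61 to 0.02, adjusted p 0.110). It passed without shRNA 1 replicate 2 (-0.43, adjusted p 0.00666) and with the hairpins as separate groups (adjusted p 0.00379), over a range of 0.00379 to 0.492 in 18 alternatives. Leaving out each library in turn gave differences from -0.43 to -0.16. Day 11 controls had 788, 826, 952 and 754 normalised reads, shRNA 1 had 692 and 787, and shRNA 2 had 501 and 521. Steap1 fell by 0.40 (SE 0.13, adjusted p 0.0411), but the groups overlapped through shRNA 1. The call was lost without either shRNA 2 library (-0.31, adjusted p 0.0796, and -0.33, adjusted p 0.0979) or any of the 4 controls (-0.44 to -0.34, adjusted p 0.0552 to 0.113), and adjusted p ran from 0.000178 to 0.241 over 18 alternatives. From day 3 to day 7 the knockdown difference of Steap1 went by -0.54 (95% interval -0.95 to -0.12, adjusted p 0.0544). That change passed in 3 of 20 alternatives, among them the fit without shRNA 1 replicate 2 of day 7 (-0.66, adjusted p 0.0143; range 0.0143 to 0.137).

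Tested directly, Steap1 was lower with shRNA 2 than with shRNA 1 at day 0 (-0.53, SE 0.09, adjusted p 1.19e-05), day 7 (-0.51, SE 0.12, adjusted p 0.00339) and day 11 (-0.50, SE 0.10, adjusted p 0.00215). At day 3 it was at -0.04 (95% interval -0.19 to 0.12, adjusted p 0.787). The calls of days 0 and 11 held in all 13 alternatives. That of day 7 was lost without shRNA 1 replicate 2 (-0.39, adjusted p 0.103) or shRNA 2 replicate 2 (-0.37, adjusted p 0.0874), range 0.000645 to 0.103 over 13 alternatives. Over the members tested, the hairpins differed for 2 of 3 at day 0 (Steap1 and Steap3), 0 of 3 at day 3, 1 of 4 at day 7 and 3 of 4 at day 11, beside 35%, 19.6%, 16.4% and 22% of all genes (limma). At day 3, 0 of 3 had an unadjusted p under 0.05 and voom called 0.

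Each hairpin against control gave the following counts. With shRNA 1, 3 of 3 tested members passed on each of days 0 and 3 and 3 of 4 on each of days 7 and 11, beside 34.7%, 39.4%, 52% and 43.6% of all genes. With shRNA 2 the counts on days 0, 3, 7 and 11 were 1 of 3, 3 of 3, 4 of 4 and 3 of 4, beside 17.6%, 31.4%, 46% and 36.9%. The comparisons of the hairpins share the control libraries of each day.

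Ordered over the 8 arms and days, each member had its own peak. The mean log2 value of Steap1 was highest in knockdown at day 3 (10.23), then control at day 3 (9.99) and control at day 11 (9.68), with each of the first 2 apart from the next, and all lower neighbours in that order overlapped. For Steap2, control at days 0, 7 and 11 overlapped at the top (11.79, 11.78 and 11.73), knockdown at day 0 came next (11.64), and below a gap control at day 3 (11.33) and knockdown at days 7, 3 and 11 (11.18, 11.17 and 11.16) overlapped in turn. Steap3 was highest in control at day 11 (12.38) and lowest in knockdown at day 3 (11.13), and its breaks without overlap came below knockdown at day 0, control at day 7, knockdown at day 7 and control at day 3. Steap4 was highest in control at day 7 (9.93) and lowest in knockdown at day 3 (7.05). For Steap4, knockdown at day 7, knockdown at day 11 and control at day 0 overlapped in turn (8.98, 8.86 and 8.81), as did knockdown at days 0 and 3 (7.73 and 7.05), and no other neighbours did, though control at day 11 cleared knockdown at day 7 by a hair (lowest 9.12367, highest 9.12342).

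Across the 32 libraries, which share days and arms, the log2 values of Steap2 and Steap3 had a Pearson r of 0.71, Steap3 and Steap4 0.57, Steap1 and Steap3 -0.53 and Steap1 and Steap4 -0.62, as a description. Among 11132 named genes with at least 50 units on the linear scale in a group, those most like Steap4 were Matn2 (an extracellular matrix protein, r 0.95), Aldh3b1 (an aldehyde dehydrogenase, 0.95), Pigt (a subunit of the enzyme that attaches lipid anchors to proteins, 0.94) and Capg (an actin-capping protein, 0.93). Their knockdown differences at day 7 were -0.54, -0.25, -0.27 and -0.41. Most like Steap3 were Lamp1 (a lysosomal membrane protein, 0.97) and the interferon-response gene Ifit2 (0.97), followed by Islr and Parp14 (both 0.97). Most like Steap1 were Bcat1 (cytosolic branched-chain aminotransferase, 0.97), Dnajc2, Ssrp1 and Set (0.96, 0.96 and 0.95). For Steap2 the values were lower, with Tbc1d2b at 0.92, Rab6b and Cbx6 at 0.90 and Sfxn3 at 0.89.

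Iron and copper genes around the family moved in both directions at day 3 and more often up than down later. Of 54 genes tested in 5 lists, 0 were higher and 1 lower (Lcn2) at day 0, 8 and 8 at day 3, 21 and 7 at day 7, and 17 and 5 at day 11. With the inflammatory list, 75 genes were tested, and of these 0 were higher and 7 lower at day 0, 8 and 16 at day 3, 22 and 20 at day 7, and 20 and 16 at day 11, a day 0 count that dropped to 3 or 4 without shRNA 1 replicate 2 or any of the controls of that day. Of all genes, 0.817% were higher and 2.44% lower at day 0, 14.6% and 12.1% at day 3, 24.9% and 22.6% at day 7, and 16.8% and 16.2% at day 11, and the counts of every list below stand beside these shares. The 28 genes named from the lists passed at day 7 or day 11 with a log2 difference of at least 0.5 in size. The lists were chosen with earlier results of these data known, and their medians are set beside that of all genes, which lay between -0.01 and 0.01 on each day. The sums of the 10 adipocyte markers were higher in knockdown on every day, with no overlap between arms. At day 0 they were 20079.6 to 20663.3 normalised reads in control and 22310.7 to 23763.9 in knockdown. Lpl alone made up means of 18693 and 21383 of these. It was the 1 marker of 10 called at day 0, where the median log2 difference of the markers was 0.036. The part of the markers in the values of these lists was not tested.

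Among 5 other ferric reductases and related cytochromes tested, 1 was higher and 0 lower at days 7 and 11, and 2 were lower at day 3. The count was 2 without shRNA 2 replicate 2 or control replicate 3 or 4 of day 7, and 2 without shRNA 1 replicate 2 or control replicate 4 of day 11. The riser was Cyb561, a heme-containing ascorbate-dependent electron carrier of vesicle membranes. Cyb561 had 148 ± 6.94 normalised reads in knockdown and 250.04 ± 48.4 in control at day 3, 2725 ± 417 and 567 ± 46.3 at day 7, and 96.2 ± 20.1 and 29.6 ± 5.31 at day 11 (SD, n = 4). Its log2 difference was a fall of 0.67 at day 3 (adjusted p 0.000984) and rises of 2.14 and 1.295 on the later days (adjusted p 1.78e-09 and 4.34e-05).

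Iron uptake genes split. Of 9 tested, 3 were higher and 4 lower at day 3, 3 and 2 at day 7, and 2 and 2 at day 11, with medians of -0.18, -0.02 and 0.07. The transferrin receptor Tfrc, which brings in the iron that Steap3 reduces, rose on all 3 days: it had 4189 ± 140.3 normalised reads in control and 6747 ± 742 in knockdown at day 3, 1361 ± 66.7 and 2982 ± 728 at day 7, and 1706 ± 70.1 and 3395 ± 779.6 at day 11 (log2 0.66, 1.06 and 0.93). Trf, transferrin itself, rose by 1.59, 1.54 and 1.95. Slc39a8, a zinc and iron importer, rose at day 3 (0.84) and day 7 (0.58). Lcn2, which binds iron-laden siderophores and also stands in the inflammatory list, fell on every day, by 0.73, 0.73, 0.48 and 0.63. Slc11a2, the transporter that takes the reduced iron out of the endosome, is outside the rule for named genes and was chosen after its values were seen: on days 3, 7 and 11 it fell by 0.18, 0.34 and 0.41 (adjusted p 0.00509, 0.000116 and 0.00019).

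Among 14 storage, export and sensing genes, 4 were higher and 2 lower at day 7 and 5 and 2 at day 11, with medians of 0.09 and -0.02. Ncoa4, the cargo receptor that sends ferritin to the lysosome, rose by 0.89 at day 7 and by 0.32 at day 11. Aco1, the iron-sensing aconitase, rose by 0.69 and 0.55, and Hmox1, which frees iron from heme, rose at day 11 (0.85, adjusted p 0.0432). Cp, ceruloplasmin, the copper-containing ferroxidase of iron export, fell by 1.05 at day 7, from 11290 ± 430.0 normalised reads in control to 5383 ± 825 in knockdown (SD, n = 4), and by 0.79 at day 11.

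Mitochondrial iron genes were next. Of 12 tested, 8 were higher and 1 lower at day 7 and 5 and 1 at day 11, with medians of 0.25 and 0.11 and 3 called at day 11 without control replicate 4. Isca1 and Isca2, scaffold proteins of iron-sulphur cluster assembly, rose by 1.02 and 0.71 at day 7 and by 0.96 and 0.32 at day 11. Glrx5, which passes clusters on, rose by 0.68 and 0.29, and Alas1, the first enzyme of heme synthesis, rose by 1.02 and 0.34. Of 14 copper genes, 5 were higher and 2 lower at day 7 and 4 and 0 at day 11, with medians of 0.11 and -0.01. The metallothioneins Mt1 (0.67 and 0.70) and Mt2 (1.12 and 0.85), the copper-zinc dismutase Sod1 (0.64 and 0.40) and Cox11, a copper chaperone of cytochrome oxidase (0.77 and 0.37), rose on both days. The copper importer Slc31a1 rose at day 7 (0.56) and did not pass at day 11 (0.18, adjusted p 0.0937).

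Inflammatory response genes, the setting in which Steap4 is best known, were lower in knockdown for 14 of 22 tested at day 7 and 12 of 22 at day 11, beside 22.6% and 16.2% of all genes. Of the 22, 0 were higher and 7 lower at day 0, 0 and 9 at day 3, 1 and 14 at day 7, and 3 and 12 at day 11, with medians of -0.16, -0.19, -0.36 and -0.30. The day 0 count was 3 without shRNA 1 replicate 2 or control replicate 1, 2 or 3 and 4 without control replicate 4, and the day 3 count was 5 without control replicate 1, 3 or 4. With a block for the replicate number 0, 1 and 7 genes of the list were called at days 0, 3 and 11. Calls over all genes fell with it from 430 to 0, from 3506 to 845 and from 4382 to 1652. The chemokine Cxcl5 fell by 1.75 at day 7, from 2392 ± 262.2 normalised reads in control to 679 ± 142 in knockdown, and by 1.71 at day 11, from 17777 ± 1265 to 5374 ± 1595 (SD, n = 4). Ccl2 fell by 1.48 and 1.22 and Ccl7 by 0.98 and 0.92 on the same days, and the adhesion molecule Vcam1 by 1.16 and 1.33. The NF-kB subunit genes Nfkb1 (-0.62 and -0.33), Nfkb2 (-0.54 and -0.38) and Relb (-0.64 and -0.49) were lower at both days. Other genes of that pathway in the list, given here after their values were seen, were not lower at both: Rela was lower at day 7 (-0.19, adjusted p 0.00692) and at -0.085 at day 11 (adjusted p 0.228), the inhibitor Nfkbia at 0.07 and 0.12, and Tnfaip3, another brake on the pathway, at 0.04 and then higher at day 11 (0.42, adjusted p 0.0207). Ptx3, a soluble pattern-recognition protein, fell by 0.60 at each, and the acute-phase gene Saa3 fell at day 11 (1.25, adjusted p 0.0149). Hp, haptoglobin, went the other way at day 7, where it rose by 0.99, and did not pass at day 11 (0.74, adjusted p 0.191). The macrophage markers Ptprc and Itgam were at 0 reads in some arms and days, and the 6 macrophage markers in the table summed to 504 to 537 normalised reads in control and 357 to 505 in knockdown libraries at day 7, and to 720 to 831 and 902 to 1057 at day 11. Of the 4 tested, Cd68 was higher in knockdown at days 7 and 11 (0.87 and 0.86, adjusted p 0.000189 and 0.0284), while Lyz2 (-0.75, adjusted p 0.00167) and Cd14 (-0.40, adjusted p 0.00401) were lower at day 7, Csf1r did not pass (0.13 and 0.12), and the part of these markers in the list's values was not tested.

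**Figure D4:**
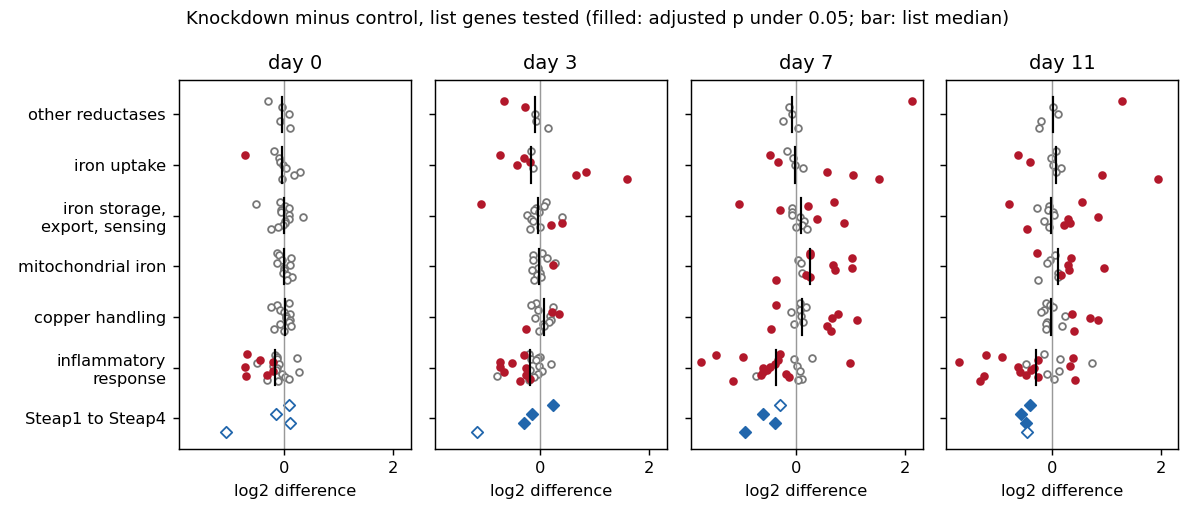
Log2 difference between knockdown and control for every tested gene of the 6 lists (circles, filled where the adjusted p was under 0.05, bars at the list medians) and for Steap1 to Steap4 from top to bottom (diamonds), by day; Steap4 was not tested at days 0 and 3. At day 7 the inflammatory list has a median of -0.36 and the mitochondrial iron list one of 0.25.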

How the data were processed

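RNA was sequenced from 32 libraries of 3T3-L1 cells in 12 groups (hairpin by day, from the sample titles). Kits were RNeasy for RNA, per the labels' protocols, and libraries were made with a TruSeq RNA kit. The submitters' processing notes name TopHat2 2.1.0, Bowtie2 2.2.6, SAMtools 1.3.1 and HTSeq 0.6.1, with no roles, and the build, annotation and use of strand are not given in the sources used here. The deposited values are log2, as the values themselves show (from -1.56 to 17.99). Their form is that of a regularized log, which no header or label names and which draws genes with few reads towards their mean, so that differences of rare genes are understated.

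Inverting that form gave values within 0.1 of a whole read for 95.8% of all values (20% by chance) and for 100% of those of the 4 Steap genes, and 22280321 to 31073715 reads in genes per library. Steap genes had 72 to 6600 reads per library. Some reads can be copies of 1 molecule, which counting error does not cover.

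limma 3.58.1 (R 4.3.3; trend, robust empirical Bayes) was fitted to the deposited log2 values with no pseudocount, on genes with 2 to the power of the value of at least 10 in at least 4 libraries of the fit, with Benjamini-Hochberg adjustment over all genes tested (threshold 0.05). All 4 Steap genes passed this filter in every fit. The filter also admitted genes with few or no reads on the day tested, such as Cfd (0 reads) and Slc2a4 (at most 2 in a library) at day 0. The shares of all genes tested count such genes. Each day had its own fit for knockdown against control; the hairpins were compared in a 3-group fit per day, the time courses in 1 fit per arm, and changes of the knockdown difference between days in 1 fit of all libraries; those for days 0 to 3 and 3 to 7 were added after the data were seen. The procedure was tested on simulated data.

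The members, lists and tests were chosen with earlier results of these data known. Named are the members and the 4 genes most correlated with each member. List genes are named if called at day 7 or 11 with a log2 difference of at least 0.5 in size. Genes of the table within 500 kb of a member are named if called on any day. Exceptions are marked. Positions come from GENCODE M21 (GRCm38), where 20521 of 20560 identifiers matched, and may differ from the build used for counting. Reads shared by near-identical copies, such as in the chemokine, Saa and metallothionein clusters, could be lost or split. Alternatives were other filters, pseudocounts of 1 and 10, equal totals, separate hairpins, a block for the replicate number, no trend, 1 fit of all libraries, voom on rebuilt reads and leaving out each library.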

Additional observations from a re-analysis of the deposited data

Results flagged for a closer look

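In 32 groups of 4 libraries (4 genes, 2 arms, 4 days), 2 held a library far from the other 3, where chance gives about 1 in 20. Steap1 in knockdown at day 3 had 10.29 in shRNA 1 replicate 1, against 10.20, 10.20 and 10.21 in the others. Steap3 in control at day 3 had 11.53 in control replicate 2, against 11.39 to 11.41. Without either library the calls of those genes at day 3 remained.

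Of the effects that differed between groups, 3 met the rule for a closer look: 2 changes between days and 1 pair of hairpins on opposite sides of control. The knockdown difference of Steap3 changed by -0.41 from day 0 to day 3 (limma adjusted p 0.00468), and that of Steap2 by -0.44 from day 3 to day 7 (adjusted p 0.00028). For Steap1 at day 0 the hairpins lay on opposite sides of the controls, and shRNA 2 minus shRNA 1 was -0.53 (adjusted p 1.19e-05), with 2 libraries per hairpin.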

How the results depend on the processing

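Of 68 results for the Steap genes, each under several settings, 409 values kept direction and side of the threshold, 12 lost the call, 8 gained it, 2 turned and 1 untested value moved, apart from the fits that leave out a library, where 599 kept both, 16 lost the call, 6 gained it and 19 turned. Where a direction turned the difference was near 0. The causes were not tested.

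With the hairpins as separate groups Steap2 (-0.16) and Steap3 (0.10) at day 0, Steap1 at day 7 (-0.30) and Steap4 at day 11 (-0.46) passed against control. Calls over all genes rose under this setting from 430 to 3340 at day 0, from 6328 to 7414 at day 7 and from 4382 to 6129 at day 11. In 1 fit of all 32 libraries Steap4 at day 11 (-0.46) passed, and Steap1 (0.24) and Steap2 (-0.16) at day 3 did not. Without the filter, Steap1 at day 11 (-0.40) was lost. Without trend and robust steps, Steap2 at day 3 (-0.16), Steap1 at day 11 (-0.40) and the hairpin differences of Steap3 at day 0 (-0.12), Steap1 at day 7 (-0.51) and Steap3 at day 11 (0.32) were lost. With equal totals the hairpin difference of Steap3 at day 7 was 0.015 and the knockdown step of Steap2 from day 7 to day 11 was 0.012, and the change of the Steap1 knockdown difference from day 3 to day 7 passed (-0.57), as it did with voom (-0.58). The untested knockdown step of Steap4 from day 3 to day 7 was 2.19 with voom.

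The labels do not say whether libraries with equal replicate numbers belong together. Same-numbered libraries correlated with a median of 0.01 to 0.11 in their deviations, the highest at day 11, where 3 of 6 pairs were above 0.1. With a replicate block, Steap1 (0.23) and Steap2 (-0.13) at day 3 and Steap1 (-0.37) and Steap3 (-0.49) at day 11 were no longer called, and the hairpin difference of Steap4 at day 11 (0.44) was. Calls over the 6 lists went from 7 to 0 at day 0 with the replicate block (4 without the filter), from 24 to 6 at day 3 and from 36 to 18 at day 11. Calls over all genes went with the block from 430 to 0, from 3506 to 845 and from 4382 to 1652 on the same days, and to 295 at day 0 without the filter.

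Leaving out each library gave these ranges. Against control they were -0.011 to 0.20 for Steap1 at day 0, -0.19 to -0.14 for Steap2 at day 3, -0.43 to -0.16 for Steap1 at day 7, and -0.59 to -0.31 for Steap4 and -0.51 to -0.31 for Steap1 at day 11. Between hairpins they were -0.17 to -0.074 for Steap3 at day 0, -0.084 to 0.0079 for Steap1 and -0.026 to 0.081 for Steap2 at day 3, -0.66 to -0.37 for Steap1 and -0.13 to 0.078 for Steap3 at day 7, and 0.22 to 0.67 for Steap4 and 0.20 to 0.44 for Steap3 at day 11. Knockdown steps ran from -0.016 to 0.037 for Steap2 from day 3 to day 7 and from -0.24 to -0.016 for Steap4 from day 7 to day 11. Changes of the knockdown difference ran from -0.24 to 0.023 for Steap1, -0.036 to 0.096 for Steap2 and -0.14 to 0.011 for Steap3 from day 7 to day 11, from -0.032 to 0.024 for Steap2 from day 0 to day 3, and from -0.66 to -0.40 for Steap1 from day 3 to day 7. List calls ran from 3 to 8, 17 to 27, 40 to 43 and 31 to 40 on the 4 days. Steap4 had as few as 72 reads in a library.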

Other observations

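Of 24 genes of the table within 500 kb of a member, 15 were tested, the members left out. None passed at day 0 (limma), 5 were higher and 1 lower at day 3, 6 and 4 at day 7, and 3 and 2 at day 11, so that 6, 10 and 5 of 15 were called on these days, beside 26.7%, 47.6% and 33% of all genes. Between Steap4 and the edge of that window, Sri (a calcium-binding protein) was lower at day 7 (-0.26, adjusted p 0.00357), whereas Dbf4 (a regulator of replication, 0.42, adjusted p 0.00051) and Slc25a40 (a mitochondrial carrier, 0.64, adjusted p 1.3e-05) were higher. At day 3 Dbf4 (0.32) and Slc25a40 (0.43) were higher while Sri was at -0.01. Near Steap3, Dbi, the acyl-CoA-binding protein, rose by 0.75 at day 7 and by 0.59 at day 11, against the fall of Steap3. Ptpn4 rose by 0.74 and 0.44 there. Around Steap1 and Steap2, Cfap69 (-0.34), Gm8773 (-1.02) and Cdk14 (-0.38) were lower at day 7, and Gtpbp10 (0.31) and Cldn12 (0.25) higher. At day 11 Gm8773 (-0.54) and Cdk14 (-0.34) were lower and Cldn12 (0.34) higher. At day 3 Cfap69 was lower (-0.55) and Gtpbp10 higher (0.29).

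Since the family is named after the prostate, 5 epithelial markers were among the marker lists. At day 0 Epcam and Krt18 were at 0 reads in all libraries. At day 7 Krt8 had 343 ± 312 normalised reads in knockdown and 7.00 ± 7.40 in control, and Krt18 had 87.8 ± 24.3 and 9.05 ± 6.78 (SD, n = 4). Both control means are under 10 normalised reads, and no test is given. Cdh1 had a mean under 3 normalised reads in either arm from day 3 on.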
